A study of Mus musculus with 10 samples.

Results

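The genes described here are 40 mouse genes of the cell division machinery, taken by name from 21887 protein-coding genes in the RefSeq table of the GRCm38 genome. They fall into 4 classes by known role: 8 G1 entry genes (the D and E cyclins with their kinases Cdk4, Cdk6 and Cdk2), 11 E2F and RB genes (8 E2F transcription factors and 3 pocket proteins), 10 S phase genes (6 subunits of the MCM helicase, Pcna, Cdc6, Cdt1 and Gmnn) and 11 G2 and M phase genes. The open chromatin considered is every accessible region inside the span of such a gene or within 20 kb of it, which came to 300 of 117284 regions in the aged list and 312 of 131656 regions in the young list. The lists come from ATAC-seq, an assay in which a transposase cuts and tags accessible DNA, on muscle stem cells that were isolated by FACS, as positive for α7-integrin and CD34, from C57BL/6 mice. The mice were 20 to 25 months old in the aged groups and 8 to 20 weeks old in the young groups, and the cells were cultured for 2 h with prostaglandin E2 (PGE2), a lipid released in injured muscle, or with 0.1% DMSO as vehicle. There are 10 libraries in 4 groups, namely 3 aged PGE2, 3 aged vehicle, 2 young PGE2 and 2 young vehicle libraries. The values analysed here are 2 peak lists, 1 for aged and 1 for young cells, both after PGE2. The PGE2 concentration is not given in the sources used here, and vehicle libraries were not analysed here, so no response to PGE2 is described.

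Muscle stem cells rest in quiescence beside the fibre and enter the cell cycle after injury. A signal to divide first raises the D cyclins, which with Cdk4 and Cdk6 start to phosphorylate RB. The E cyclins with Cdk2 complete this step, and the E2F factors held by RB and its relatives p107 and p130 are freed to switch on the genes of DNA replication. Cdc6 and Cdt1 load the MCM helicase onto origins, geminin blocks Cdt1 once replication has begun, and PCNA is the sliding clamp of the DNA polymerases. Cdk1 with the A and B cyclins and the Polo and Aurora kinases then drive mitosis. In quiescent cells many S and M phase promoters are held silent by p130 and E2F4 in the DREAM complex, which binds E2F sites and the cell cycle homology region (CHR).

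Each age has 1 list without values for its separate libraries, so differences between the ages have no replicate check and no p-value. Whether such a difference is there before PGE2 or arises in the response to it cannot be told apart. The height of a region is the deposited fold over the background that the authors' peak caller used, and it is the authors' own value. Folds are read only against other folds of the same list. The number of reads behind each list is unknown, and a site open in fewer cells and a site cut less often per cell cannot be told apart. Binomial intervals cover counting error over regions only. The strongest region overlapping 1 kb on either side of an end of the gene's span is called its gene-end region. Gene ends of all 10 muscle stem cell markers, among them Pax7, Myf5 and Vcam1, were open in both lists, with folds of 16.6 to 45.3 in the aged list and 26.7 to 111 in the young list. Gene ends were open in both lists for 2 of 6 endothelial markers (Kdr and Tek), 5 of 6 fibroblast markers, 1 of 5 immune markers (Cd68) and 1 of 6 keratinocyte and liver markers (Apoa2). Some of these were as strong as the muscle stem cell markers or stronger. The sites of Cd68 and Apoa2 also lay within 1 kb of an end of another protein-coding gene in both lists. Their strength cannot be given to the marker alone. The fibroblast marker Dpt had 98.9-fold in the aged list and 129-fold in the young list, Apoa2 109-fold in the aged list and 170.2-fold in the young list, Tek 42.5-fold in the aged list and 58.6-fold in the young list, and Cd68 31.5-fold in the aged list and 39.97-fold in the young list. Pecam1, Tie1, Emcn, Ptprc, Csf1r, Cd3e and Itgam had no region at their ends, Ly6a was open in the aged list alone and Cdh5 in the young list alone (1.98-fold). The part of other cells in the values below was not tested.

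Every one of the 40 genes had an open gene end in both lists. The share over all protein-coding genes was 63.3%, so an open gene end was the more common state in the whole genome as well. No gene of the set was open at its ends in the aged list alone, where the background was 0.48%, or in the young list alone, where it was 3.2%, and a count of 0 of 40 allows a share of up to 7.5%, taken as 3 counts of 40. The strongest gene-end region of each of the 40 genes was overlapped by a region of the other list, as were 99.2% of such regions over all genes in the aged list and 95.3% in the young list. The summits coincided closely, within 100 bp for 37 of 40 genes and at a median distance of 7.5 bp. The exceptions were Ccnd1, Ccnd3 and Mcm7, whose strongest summits lay more than 500 bp apart in the aged and young lists.

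The gene ends of the set were strong sites. Their median fold was 35.8 in the aged list (95% order-statistic interval over genes 28.7 to 43.5), against a median of 28.9 over all genes with a gene-end region. For the young list the median was 58.0 (48.6 to 79.7), against 44.1 over all genes. In the aged list 27 of the 40 gene-end regions (67.5%) were among the strongest 10% of all regions of the list, where the share over all genes with a gene-end region was 52.8%. In the young list 33 of 40 (82.5%) were, against 60.2% over all genes. The median width of the gene-end regions was 1383.5 bp in the aged list and 1833.5 bp in the young list. The folds within the set spanned a wide range, with E2f3 highest in both lists, Plk1 lowest in the aged list and Ccnd2 lowest in the young list.

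**Figure D1:**
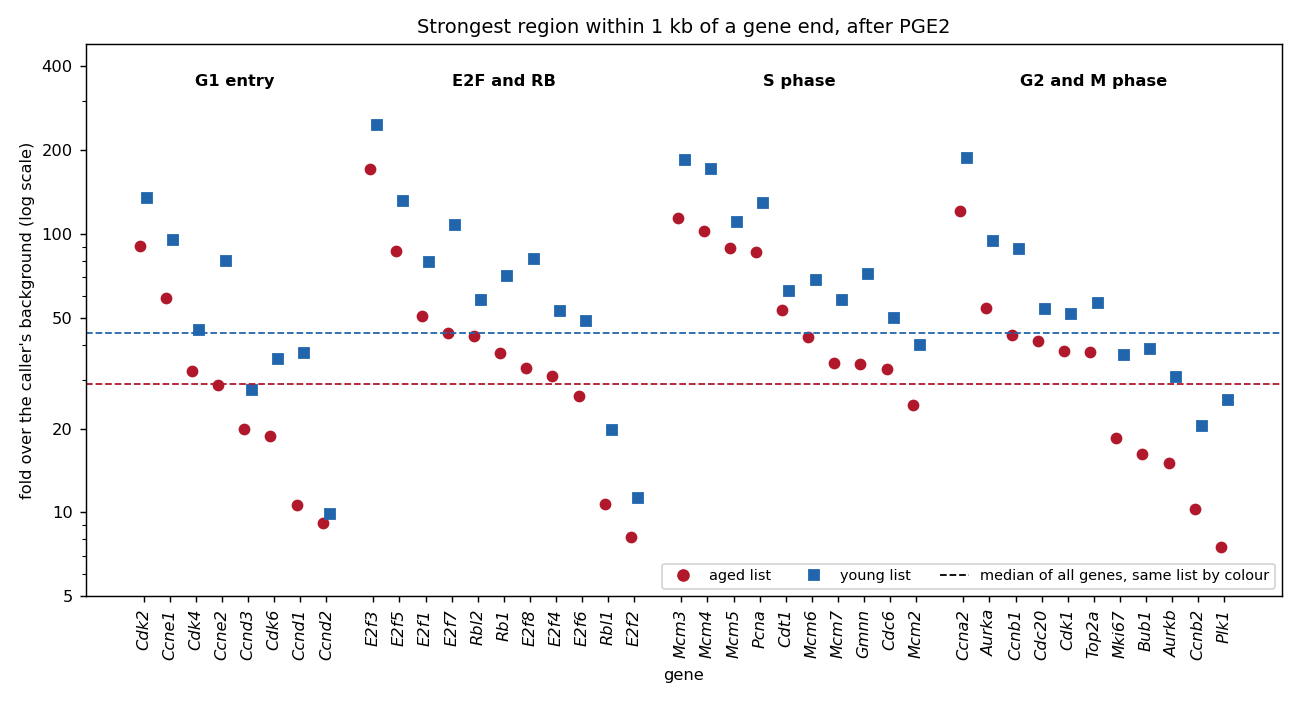
Fold of the strongest region within 1 kb of a gene end (log axis) for the 40 genes, by class and in falling order of the aged value. Red circles are the aged list, blue squares the young list, and dashed lines the medians of all genes in each list (28.9 in the aged list, 44.1 in the young list). E2f3 stands highest in both lists, and the 5 lowest genes in the aged list are Plk1, E2f2, Ccnd2, Ccnb2 and Ccnd1.

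Reference promoter sequence was compared between the classes, because the S and M phase genes are known to be controlled through short words close to their starts. The windows are 300 bases long, 250 before and 50 after a start listed in the RefSeq promoter table of GRCm38.p6, and 30 of the 40 genes have an entry. All 30 windows were overlapped by an accessible region in the aged list and in the young list. The windows of 6 genes are shown 5′ to 3′ on the strand of the gene. They cover a strong MCM gene, the gene with the strongest gene end, a G1 kinase and 3 mitotic genes, the last of which had the weakest aged gene end. Capitals mark the E2F, CHR and NF-Y words searched, on either strand. The E2F words are TTTCCCGC, TTTGGCGC, TTTCGCGC and TTTGCCGC, the CHR words TTTGAA and TTTAAA, and the NF-Y word CCAAT. The positions are chr1:20820263-20820562 (minus strand) for Mcm3, chr13:29986014-29986313 (minus) for E2f3, chr10:128705002-128705301 (minus) for Cdk2, chr10:69352863-69353162 (minus) for Cdk1, chr2:172370521-172370820 (minus) for Aurka and chr7:122159185-122159484 (plus) for Plk1.
Mcm3: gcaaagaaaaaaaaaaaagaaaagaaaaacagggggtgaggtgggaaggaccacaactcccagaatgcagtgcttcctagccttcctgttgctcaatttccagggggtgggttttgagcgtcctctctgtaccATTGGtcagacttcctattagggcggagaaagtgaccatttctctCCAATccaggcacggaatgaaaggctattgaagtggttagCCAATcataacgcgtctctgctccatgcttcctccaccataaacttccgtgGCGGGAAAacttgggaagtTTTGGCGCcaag
E2f3: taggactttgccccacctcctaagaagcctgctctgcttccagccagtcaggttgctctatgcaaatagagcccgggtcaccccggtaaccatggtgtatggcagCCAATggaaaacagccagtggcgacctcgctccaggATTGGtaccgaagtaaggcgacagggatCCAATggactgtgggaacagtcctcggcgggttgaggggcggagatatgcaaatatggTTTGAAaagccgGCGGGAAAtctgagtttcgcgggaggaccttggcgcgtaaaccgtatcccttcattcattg
Cdk2: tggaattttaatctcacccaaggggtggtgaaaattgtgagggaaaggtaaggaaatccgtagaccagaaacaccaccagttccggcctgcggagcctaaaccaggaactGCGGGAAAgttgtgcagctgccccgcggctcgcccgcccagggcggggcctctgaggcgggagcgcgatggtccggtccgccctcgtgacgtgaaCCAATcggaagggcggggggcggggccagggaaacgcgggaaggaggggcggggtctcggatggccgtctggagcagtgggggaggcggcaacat
Cdk1: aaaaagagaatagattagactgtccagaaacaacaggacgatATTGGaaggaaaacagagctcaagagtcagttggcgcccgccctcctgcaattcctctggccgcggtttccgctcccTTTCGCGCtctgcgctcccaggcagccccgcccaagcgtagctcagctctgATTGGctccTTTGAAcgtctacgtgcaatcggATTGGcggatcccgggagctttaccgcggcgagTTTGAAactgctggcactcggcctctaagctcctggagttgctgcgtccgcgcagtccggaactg
Aurka: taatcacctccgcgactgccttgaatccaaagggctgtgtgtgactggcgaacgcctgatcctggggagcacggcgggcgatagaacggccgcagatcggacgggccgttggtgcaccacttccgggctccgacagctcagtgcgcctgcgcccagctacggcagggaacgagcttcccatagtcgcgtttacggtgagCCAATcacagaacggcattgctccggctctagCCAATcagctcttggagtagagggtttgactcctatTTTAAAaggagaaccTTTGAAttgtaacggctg
Plk1: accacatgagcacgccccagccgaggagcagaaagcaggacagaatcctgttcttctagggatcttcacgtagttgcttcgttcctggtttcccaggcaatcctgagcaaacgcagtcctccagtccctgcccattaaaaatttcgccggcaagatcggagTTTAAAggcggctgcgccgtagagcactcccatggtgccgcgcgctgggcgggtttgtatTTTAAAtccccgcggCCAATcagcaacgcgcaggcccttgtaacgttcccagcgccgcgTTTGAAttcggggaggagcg

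The Mcm3 window holds 2 E2F words close to the start, at bases 270 to 277 and 289 to 296 counted from 1 at the 5′ end, and 3 NF-Y words upstream of them. The E2f3 window has a CHR word at bases 228 to 233 followed by an E2F word at bases 240 to 247. The Cdk2 window has an E2F word farther upstream, at bases 111 to 118, and a single NF-Y word. The Cdk1 window joins all 3 kinds, with an E2F word at bases 120 to 127, CHR words at bases 180 to 185 and 236 to 241, and 3 NF-Y words. Aurka has no E2F word and has 2 CHR words, at bases 268 to 273 and 283 to 288, below 2 NF-Y words. Plk1 has 3 CHR words, at bases 162 to 167, 222 to 227 and 281 to 286, and an NF-Y word at bases 237 to 241.

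Over the 30 windows the words followed the classes. An E2F word was found in 12 of 30 windows (40%), against 2.85% of the 21263 promoters of protein-coding genes and 3.77% of those whose gene end was open in both lists. It was found in 6 of 8 S phase windows, 4 of 8 E2F and RB windows, 1 of 5 G1 entry windows (Cdk2) and 1 of 9 G2 and M phase windows (Cdk1). The CHR words, which are shorter and so commoner, were found in 8 of 9 G2 and M phase windows (88.9%), with Bub1 the exception, against 2 of 8 S phase windows, 25.0% of all promoters and 19.2% of those open in both lists. The NF-Y word was found in 9 of 9 G2 and M phase windows and 6 of 8 S phase windows, against 38.2% of all promoters and 37.7% of those open in both lists. The cAMP response element TGACGTCA was searched because PGE2 raises cAMP through some of its receptors, and it was found in 1 of 30 windows, that of Mcm5, against 2.23% of all promoters and 2.99% of those open in both lists. Its core TGACG, which every full element also contains, was found in 12 of 30 windows (40%), among them 4 of 5 G1 entry windows, against 23.6% of all promoters and 29.7% of those open in both lists. The GC box GGGCGG, whose bases can overlap an E2F word, was found in 24 of 30 windows (80%), against 46.2% of all promoters and 61.6% of those open in both lists. The median GC content was 59.0% in the windows of the set and 60.7% in promoters open in both lists. A word in a window is a match of letters and not evidence of a bound factor.

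**Figure D2:**
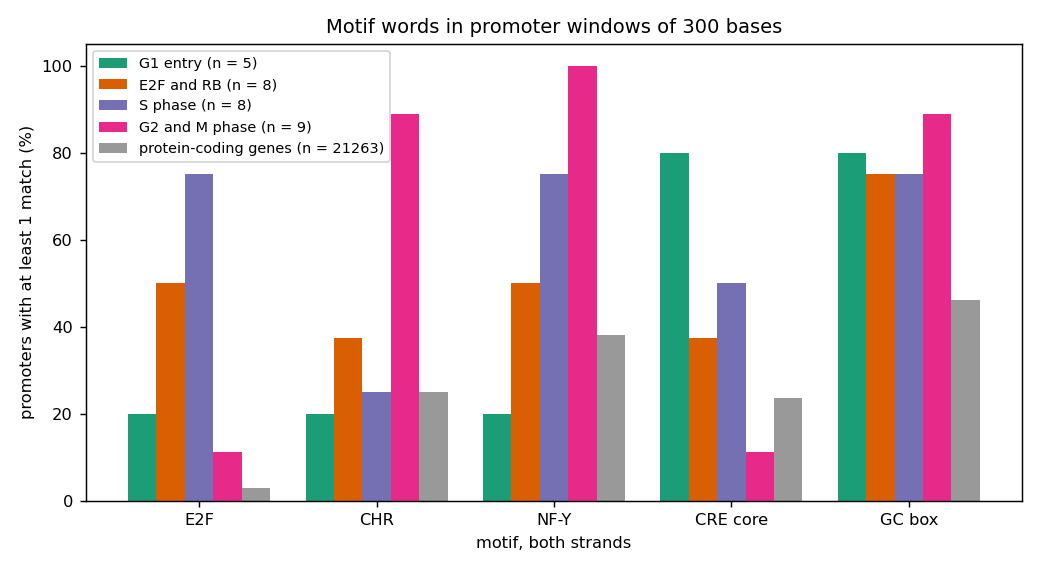
Share of 300-base promoter windows with at least 1 match to each word on either strand (%), for the 4 classes and, in grey, all 21263 promoters of protein-coding genes. E2F words stand out in S phase windows (6 of 8) and CHR words in G2 and M phase windows (8 of 9).

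The accessible regions overlapped these windows, although not every summit lay inside them. In the aged list the summit lay more than 250 bp upstream of the start at E2f1, Cdt1, Cdc6 and Rbl1. It lay more than 50 bp downstream at E2f6, E2f8 and Ccnd3. The sequence under these summits was therefore not searched for words. Of the 30 genes with a listed start, the strongest gene-end region lay at such a start for 29 in the aged list and 28 in the young list. Among these, the summit fell upstream of the start for 24 genes in the aged list and 23 in the young list, at a median distance of 84 bp in the aged list and 78 bp in the young list, and within 100 bp for 18 genes in each list. Cdk2 was the exception in both lists, since its strongest gene-end region (chr10:128695230-128697122 in the aged list) lay beyond the finish of the gene, at the ends of Pmel and Rab5b. Ccnd3 was a further exception in the young list, where its strongest gene-end region lay at the finish side of the span, near Bysl, with 27.5-fold, while the region at its outer start had 23.4-fold. In 7 of the 40 genes (17.5%) in the aged list and 8 of 40 (20%) in the young list the strongest gene-end region was also within 1 kb of an end of another protein-coding gene, against 26.7% of all genes in the aged list and 26.8% in the young list. In the aged list these were Mcm4 with Prkdc, Ccna2 with Bbs7, Aurka with Cstf1, Mcm7 with Ap4m1, Pcna with Cds2, E2f4 with Exoc3l, and Cdk2. Ccnd3 with Bysl was added in the young list. The strength of such a shared site cannot be given to either gene alone.

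Among the G1 entry genes the 3 D cyclins and Cdk6 had the weakest gene ends in both lists, and Cdk4 lay above Ccne2 in the aged list. The median of the 3 D cyclins with Cdk4 and Cdk6 was 18.8-fold in the aged list and 35.5-fold in the young list, below the medians of all genes in both. Ccnd1, a D cyclin that growth signals induce (chr7:144929931-144939831), had 10.6-fold in the aged list and 37.2-fold in the young list. Ccnd2 (chr6:127125162-127152188) had 9.13-fold in the aged list and 9.86-fold in the young list. The summit of this Ccnd2 region lay 1150 bp inside the span in the aged list. The region was within 1 kb of a listed start of the non-coding gene 9330179D12Rik. Ccnd3, the D cyclin tied to muscle differentiation (chr17:47505051-47599689), had 19.9-fold in the aged list and 27.5-fold in the young list, with a second listed start inside its span at 29.1-fold in the aged list and 43.1-fold in the young list. Cdk4 had 32.2-fold in the aged list and 45.2-fold in the young list, and Cdk6 18.8-fold in the aged list and 35.5-fold in the young list. The E cyclins and Cdk2 had a higher median, 58.6-fold in the aged list and 94.7-fold in the young list. This median takes Cdk2 at a site that it shares with other genes. Ccne1 stood at 58.6-fold in the aged list and 94.7-fold in the young list. Ccne2 stood at 28.7-fold in the aged list and 79.7-fold in the young list. Cdk2 had 90.7-fold in the aged list and 134-fold in the young list at the site it shares with Rab5b, and 29.3-fold in the aged list and 38.4-fold in the young list at its own listed start. Taken at its own start, Cdk2 lay below Cdk4 in both lists, as Ccne2 did in the aged list. Only Ccne1 then stood above Cdk4 in the aged list.

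The E2F and RB genes held both the strongest gene end of the set and some of the weakest. E2f3, an activator E2F (chr13:29906575-29986064), had 170.4-fold in the aged list and 245-fold in the young list, in a region 4516 bp wide in the aged list and 4837 bp wide in the young list. Among the 13855 genes open in both lists it ranked at percentile 99.9 in the aged list and 99.8 in the young list. E2f1, another activator, had 50.8-fold in the aged list and 79.5-fold in the young list. E2f2, the remaining activator, had 8.17-fold in the aged list and 11.3-fold in the young list at its outer start, while a second listed start inside the span had 24.9-fold in the aged list and 26.0-fold in the young list. The repressor E2F genes ran from 26.1-fold for E2f6 to 86.9-fold for E2f5 in the aged list, and from 48.6-fold for E2f6 to 131-fold for E2f5 in the young list. E2f4, the partner of p130 in quiescent cells, had 30.8-fold in the aged list and 52.6-fold in the young list. Of the pocket protein genes, Rb1 had 37.4-fold in the aged list and 70.3-fold in the young list. Rbl2, which encodes p130, had 43.1-fold in the aged list and 58.1-fold in the young list. Rbl1, which encodes p107, was much weaker, at 10.8-fold in the aged list and 19.8-fold in the young list.

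The S phase genes had strong gene ends, except for Mcm2, which lay below the median of all genes in both lists. All 10 lay at or above 24.3-fold in the aged list and 39.9-fold in the young list, and their median was 47.9-fold in the aged list and 70.2-fold in the young list. The 6 MCM subunits, which form the ring helicase of the replication fork, had a median of 65.7-fold in the aged list and 89.6-fold in the young list. Mcm3 was strongest, at 114-fold in the aged list and 185-fold in the young list, and Mcm2 weakest, at 24.3-fold in the aged list and 39.9-fold in the young list. Mcm4, whose end is shared with Prkdc, had 102.1-fold in the aged list and 171-fold in the young list. Pcna stood at 85.7-fold in the aged list and 129-fold in the young list. The licensing factor Cdc6 had 32.8-fold in the aged list and 49.9-fold in the young list, and its partner Cdt1 53.3-fold in the aged list and 62.2-fold in the young list. Gmnn, the gene of the Cdt1 inhibitor geminin, had 34.1-fold in the aged list and 71.9-fold in the young list.

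In the aged list the G2 and M phase genes fell into a strong and a weak set, with none between 18.5-fold and 37.8-fold. In the young list the 2 sets were less clearly apart, with Cdk1 at 51.5-fold and Bub1 at 38.5-fold. Ccna2, the A cyclin of S and G2 phase (chr3:36564865-36573038), was strongest at 121-fold in the aged list and 187-fold in the young list, in a region that also lies at an end of Bbs7. Aurka, a kinase of the spindle poles, followed at 54.0-fold in the aged list and 94.2-fold in the young list. Ccnb1, the main B cyclin, had 43.5-fold in the aged list and 88.0-fold in the young list, and its partner Cdk1 37.9-fold in the aged list and 51.5-fold in the young list. Cdc20, an activator of the anaphase promoting complex, had 41.4-fold in the aged list and 53.6-fold in the young list, and Top2a, a topoisomerase, 37.8-fold in the aged list and 56.6-fold in the young list. Mki67, the gene of the Ki-67 proliferation antigen, had 18.5-fold in the aged list and 36.8-fold in the young list. The spindle checkpoint kinase gene Bub1 had 16.1-fold in the aged list and 38.5-fold in the young list, and Aurkb 15.1-fold in the aged list and 30.5-fold in the young list. Ccnb2 had 10.3-fold in the aged list and 20.5-fold in the young list. The Polo kinase gene Plk1 (chr7:122159435-122169884) was the weakest of the set in the aged list, at 7.54-fold, and had 25.2-fold in the young list. By single summits within 1 kb of an end, Ccnd2 (3.94-fold) and Cdk6 (7.26-fold) were weaker still in the aged list.

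Set against each other, the G1 entry genes had weaker gene ends than the S and M phase genes, with much overlap. The median was 24.3-fold over the 8 G1 entry genes and 37.9-fold over the 21 S and M phase genes in the aged list. In the young list it was 41.2-fold over the G1 entry genes and 57.9-fold over the S and M phase genes. Single genes ran from 9.13 to 90.7-fold among G1 entry genes and from 7.54 to 121-fold among S and M phase genes in the aged list, so the classes covered nearly the same range. The D cyclins, Cdk4 and Cdk6 all lay below the S and M phase median in the aged list. The E cyclins and Cdk2 lay above it there except for Ccne2. At its own listed start Cdk2 also lay below that median, which left Ccne1 alone above it. The order depended on the window in the young list. With gene ends widened to 2.5 kb on either side, the G1 entry median was 31.4-fold in the aged list and 62.2-fold in the young list. The S and M phase median stayed at 37.9-fold in the aged list and 57.9-fold in the young list. The G1 entry median thus stood lower in the aged list and higher in the young list. The wider windows took in a region at a listed start of Taf8 for Ccnd3 (34.0-fold aged, 63.6-fold young). For Cdk4 they took in a region at a listed start of Tspan31 (34.3-fold aged, 60.8-fold young). The young G1 entry median lay between these neighbouring sites, so the change of order does not describe the G1 entry genes' own ends.

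Away from gene ends the G1 entry genes had more regions for their length than the S and M phase genes, although these regions were no stronger. A region was counted as distal if it lay inside the span or within 20 kb of it, and more than 1 kb from the ends of this and every other protein-coding gene. The G1 entry genes had 68 distal regions in the aged list and 59 in the young list over 676 kb, which is 10.1 per 100 kb in the aged list and 8.72 per 100 kb in the young list. The S and M phase genes had 43 distal regions in the aged list and 58 in the young list over 1149 kb, which is 3.74 per 100 kb in the aged list and 5.05 per 100 kb in the young list. The median fold of the distal regions was 3.63 at G1 entry genes and 4.61 at S and M phase genes in the aged list, and 4.67 at G1 entry genes and 5.37 at S and M phase genes in the young list, with overlapping 95% intervals of the medians. Over all genes the density was 5.06 per 100 kb in the aged list and 5.91 per 100 kb in the young list. The E2F and RB genes had 8.15 per 100 kb in the aged list and 9.36 per 100 kb in the young list. Within G1 entry, the D cyclins with Cdk4 and Cdk6 had 12.2 per 100 kb in the aged list and 10.1 per 100 kb in the young list, and the E cyclins with Cdk2 2.65 per 100 kb in the aged list and 3.97 per 100 kb in the young list. The activator E2F genes had 15.8 per 100 kb in the aged list and 16.7 per 100 kb in the young list, whereas the pocket protein genes had 1.92 per 100 kb in the aged list and 2.46 per 100 kb in the young list.

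The number of regions depends on how far neighbouring summits were joined, and the covered length depends less on it. Distal regions covered 6.14 kb per 100 kb at G1 entry genes and 2.20 kb at S and M phase genes in the aged list. They covered 7.71 kb per 100 kb at G1 entry genes and 3.12 kb at S and M phase genes in the young list. Over all genes the covered length was 2.57 kb per 100 kb in the aged list and 3.42 kb in the young list. Among G1 entry genes, Ccnd1 and Cdk4 had more distal regions in the aged list than in the young list. Ccnd1 had 13 distal regions in the aged list and 3 in the young list while 10730 bp of its neighbourhood were covered in the aged list and 15294 bp in the young list. Cdk4 had 9 in the aged list and 4 in the young list, where a single region of 4717 bp covered most of the sites that were separate in the aged list. Without Ccnd1 the G1 entry density was 8.78 per 100 kb in the aged list and 8.94 per 100 kb in the young list.

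**Figure D3:**
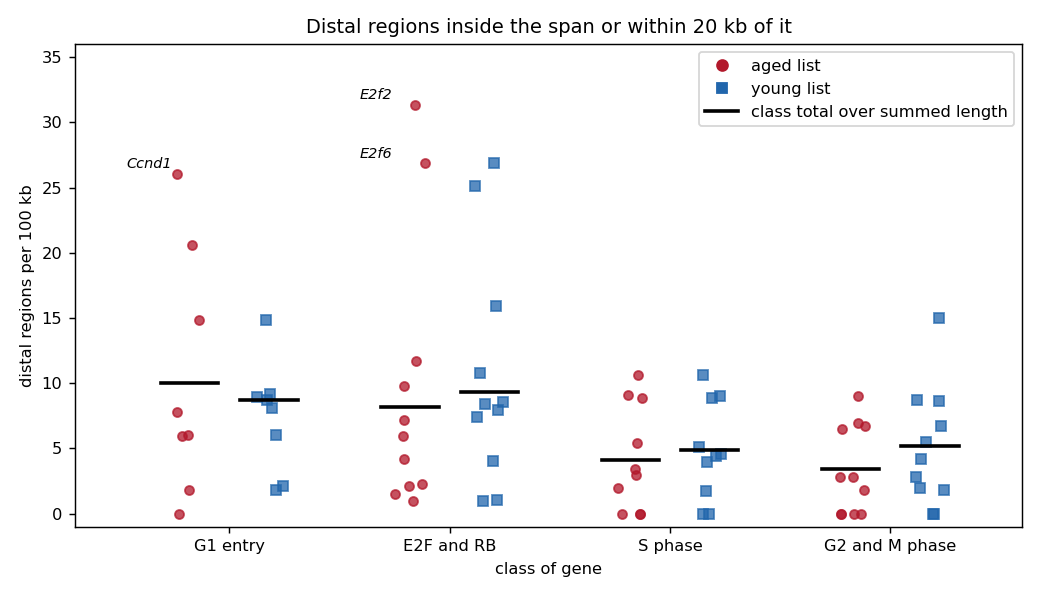
Distal regions per 100 kb of span and 20 kb flanks, 1 point a gene, for the 4 classes, with the aged list (red circles) left of the young list (blue squares). Black bars are the class total over the summed length, which is 10.1 in the aged list and 8.72 in the young list for G1 entry genes. Points at 0 occur in the G1 entry class (Cdk2, aged list), the S phase class and the G2 and M phase class.

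The genes with most distal regions in the aged list were Ccnd3 and E2f2 with 20 each, Cdk6 with 18, E2f6 with 15 and E2f3 with 14. The same genes had 20, 16, 20, 15 and 19 in the young list. At the other end, 8 of 40 genes (20%) had no distal region in the aged list and 4 of 40 (10%) had none in the young list, against 30% of all genes in the aged list and 25% in the young list. Mcm4, Mcm7, Ccna2 and Ccnb1 had none in either list, and Cdk2, Mcm3, Ccnb2 and Plk1 had none in the aged list and 1 each in the young list. All 11 E2F and RB genes had at least 1 distal region in both lists.

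Distal regions were mostly weak, with a median of 4.18-fold in the aged list (3.46 to 5.29) and 5.55-fold in the young list (4.49 to 6.38), beside medians of 3.99-fold in the aged list and 4.36-fold in the young list over all genes. A minority were strong. In the aged list 43 of 185 distal regions (23.2%), at 19 genes, had 10-fold or more, against 19.3% over all genes, and 36 of these had neither a listed start nor an end of a non-coding gene within 1 kb. The young list had 60 of 202 distal regions (29.7%), at 22 genes, that reached 10-fold, against 23.1% over all genes, and 50 of these had neither. In the aged list the strongest distal region exceeded the gene-end region at 8 of the 32 genes with both kinds (25%), against 30.9% of all genes with both. In the young list it did so at 7 of 36 genes (19.4%), against 27.8% of all genes.

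With the 1 kb gene-end window, all 3 D cyclin genes were in this class in both lists. At Ccnd1 a region 1840 bp beyond the span (chr7:144941062-144941896 in the aged list) had 19.5-fold in the aged list and 45.9-fold in the young list. With a 2.5 kb window this Ccnd1 region counts as a gene-end region. At Ccnd2 the strongest distal region had 12.5-fold in the aged list and 19.2-fold in the young list. At Ccnd3 a region 6.15 kb inside the span (chr17:47510792-47512355 in the aged list) had 40.4-fold in the aged list and 58.5-fold in the young list, more than either of its listed starts. A further Ccnd3 region, 37.1 kb inside, had 31.6-fold in the aged list and 30.5-fold in the young list.

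Among the E2F genes, E2f2 had the highest ratio of distal to gene-end fold in the aged list, 3.29, from a region 13.2 kb inside the span (chr4:136185218-136185983) with 26.9-fold in the aged list and 34.6-fold in the young list. That ratio is taken to its weak outer start. The listed start inside the span of E2f2 was nearer in strength, at 24.9-fold in the aged list and 26.0-fold in the young list. The ratio was 2.03 at Ccnd3 and 1.84 at Ccnd1 in the aged list. E2f6, a repressor E2F that acts without pocket proteins, had a region 9645 bp beyond its span (chr12:16835221-16836708) with 46.3-fold in the aged list and 62.5-fold in the young list. Ccne1 had a strong distal region on either side of the gene, at 52.9-fold and 38.0-fold in the aged list and 74.2-fold and 61.7-fold in the young list, each below its gene end.

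Of the S and M phase genes, Cdk1, Mki67 and Aurkb were in this class in the aged list, and Pcna and Aurkb in the young list. The Cdk1 region (40.8-fold in the aged list, 43.7-fold in the young list) lay 8536 bp outside the span at the ends of the non-coding gene 4930423B08Rik and the pseudogene Rpl30-ps7. The Aurkb region (25.8-fold in the aged list, 40.6-fold in the young list) lay at a cluster of transfer RNA genes, and the Pcna region (80.7-fold in the aged list, 137-fold in the young list) at a listed start of Cds2. The Mki67 region, 19317 bp outside the span in the aged list, had 21.9-fold in the aged list and 35.5-fold in the young list, with no listed start nearby. Distance alone does not tie a distal region to a gene, and the gene that each region serves was not tested.

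**Figure D4:**
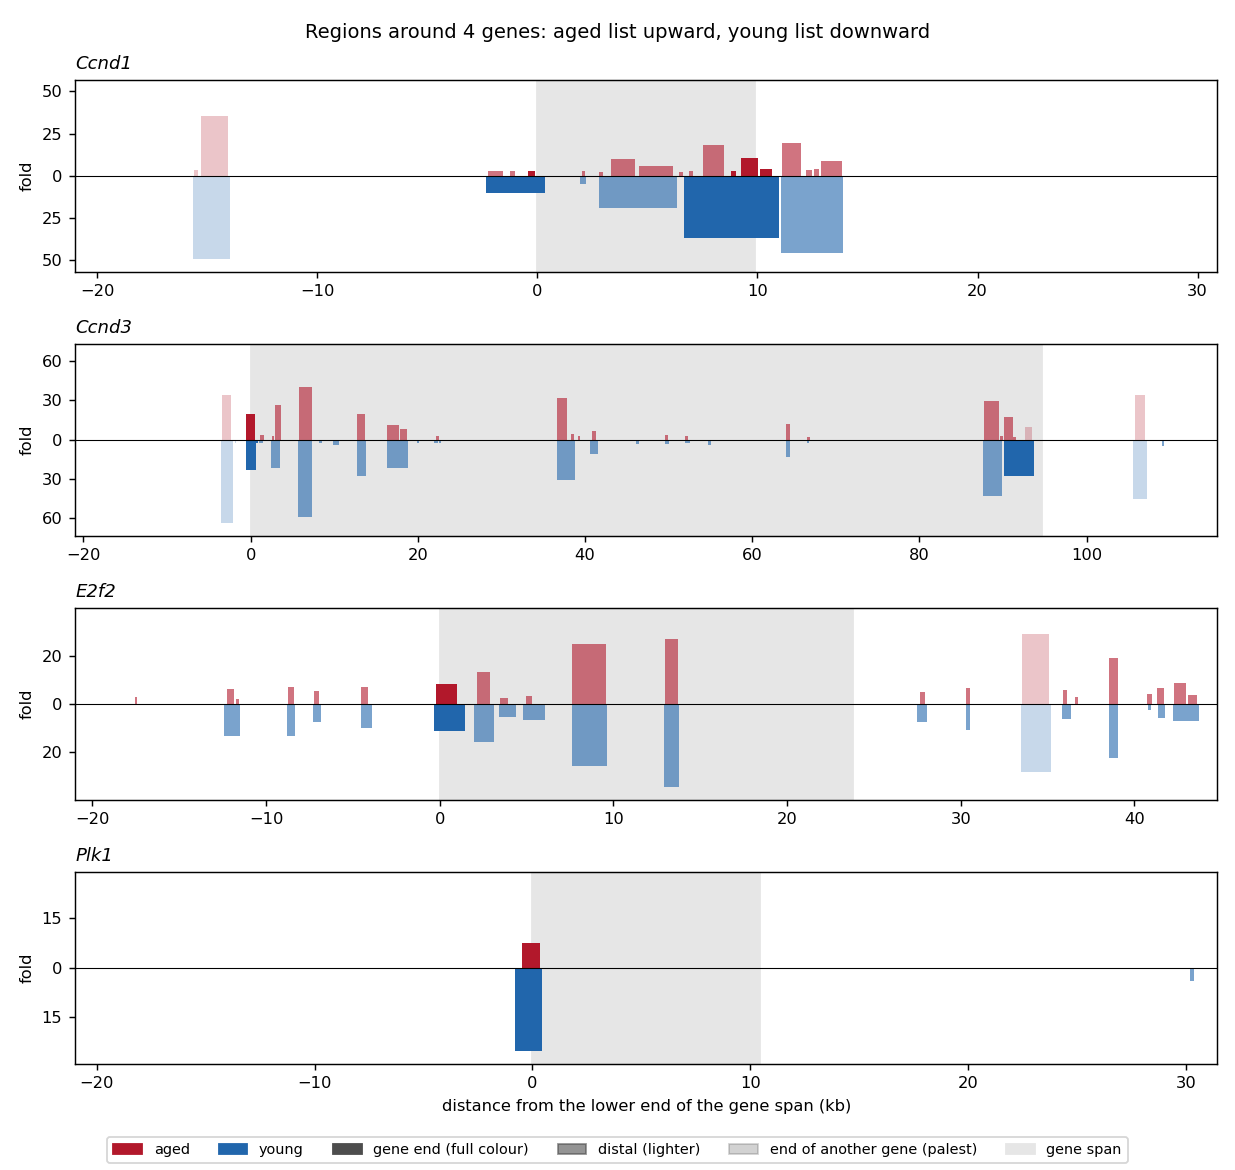
Accessible regions around Ccnd1, Ccnd3, E2f2 and Plk1, with the aged list drawn upward in red and the young list downward in blue, bar height the fold and the horizontal axis the distance from the lower end of the gene span (kb). Full colour marks gene-end regions, lighter colour distal regions, palest colour ends of other genes and grey the gene span. Ccnd1, Ccnd3 and E2f2 carry many regions, some higher than the gene end, and Plk1 has its gene-end region alone in the aged list.

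Sharing between the lists was high near the 40 genes, as it was in the whole lists. Of the 300 aged regions 283 were overlapped by a young region (94.3%, 95% exact binomial interval 91.1 to 96.7), against 89.3% of the whole aged list. Of the 312 young regions 237 were overlapped by an aged region (76.0%, 70.8 to 80.6), against 71.8% of the whole young list. Regions at gene ends were overlapped in 54 of 54 cases in the aged list and 47 of 54 in the young list, against 96.2% of all gene-end regions in the aged list and 85.8% in the young list. Distal regions were overlapped in 169 of 185 cases in the aged list (91.4%) and 141 of 202 in the young list (69.8%), close to the 88.9% in the aged list and 68.3% in the young list over all genes. The regions found in 1 list alone were weak. The 17 aged ones had a median of 2.16-fold and reached 5.29-fold at a site 12557 bp outside Rbl1 (chr2:157133222-157133491). The 75 young ones had a median of 2.69-fold and reached 6.999-fold at a site inside E2f7 (chr10:110760652-110760899).

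The length covered by regions within 20 kb was smaller in the aged list than in the young list at 40 of 40 genes. The same held for 93.9% of all genes with a region, so the count says little about the set. The median ratio of covered length, aged over young, was 0.744 for the set and 0.759 over all genes. It was lowest at Mcm5, at 0.306, where 4594 bp were covered in the aged list and 15010 bp in the young list, much of it in 2 wide young regions at Hmox1. It was highest at Cdc20, at 0.993.

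To set the lists side by side without comparing folds, each gene end was ranked among the 13855 genes open in both lists, separately in each list, from percentile 0 to 100. The median percentile of the 40 genes was 59.2 in the aged list and 60.2 in the young list, above the middle of the ranking in both. The gene ends kept similar ranks for 31 of the 40 genes, within 10 points of each other. The rank was at least 10 points lower in the aged list for 8 of 40 genes (20%), against 6.73% of all genes open in both lists. It was at least 10 points higher in the aged list for 1 of 40 (2.5%), against 6.89% of all genes. The median difference, aged minus young, was -1.12 points over the 40 genes and 0.07 over all genes, and it was below 0 for 24 genes and above 0 for 16. This comparison was added after the values had been seen.

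The genes ranked lower in the aged list came from all 4 classes. Ccne2, whose E cyclin takes cells from G1 into S phase, had the greatest difference, at percentile 49.3 in the aged list and 75.5 in the young list. E2f7 and E2f8 encode atypical repressors and are themselves known targets of E2F1. E2f8 stood at percentile 55.3 in the aged list and 76.5 in the young list, and E2f7 at 69.0 in the aged list and 87.7 in the young list. Gmnn stood at 56.8 in the aged list and 70.8 in the young list. Of the mitotic genes, Plk1 stood at 15.7 in the aged list and 28.6 in the young list, Bub1 at 29.6 in the aged list and 42.2 in the young list, and Ccnb1 at 68.4 in the aged list and 80.1 in the young list. Cdt1 was the gene ranked higher in the aged list, at 77.2 there and 63.5 in the young list. Cdc20, an M phase gene, came just short of 10 points, with percentiles of 66.0 in the aged list and 56.6 in the young list, and Rb1 just short on the other side, with 61.2 in the aged list and 69.7 in the young list. The strongest gene ends, of E2f3, Mcm3, Ccna2 and Mcm4, kept their high places, the lowest of them being Mcm4 at percentile 96.8 in the aged list and 97.6 in the young list.

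Ccnd1, at percentile 21.003 in the aged list and 40.9 in the young list, differed in the way its regions were joined. In the young list a region 4319 bp wide (chr7:144936594-144940912) reached the gene end and had its summit 7.74 kb inside the span from the lower end. In the aged list a summit at the same place, 7.75 kb from the lower end, lay in a separate distal region of 18.2-fold (chr7:144937442-144938432), and the gene-end region was a narrower one of 783 bp. When single summits within 1 kb of an end were compared in place of merged regions, Ccnd1 had 10.6-fold in the aged list and 27.4-fold in the young list, and its rank difference was -10.4 points.

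**Figure D5:**
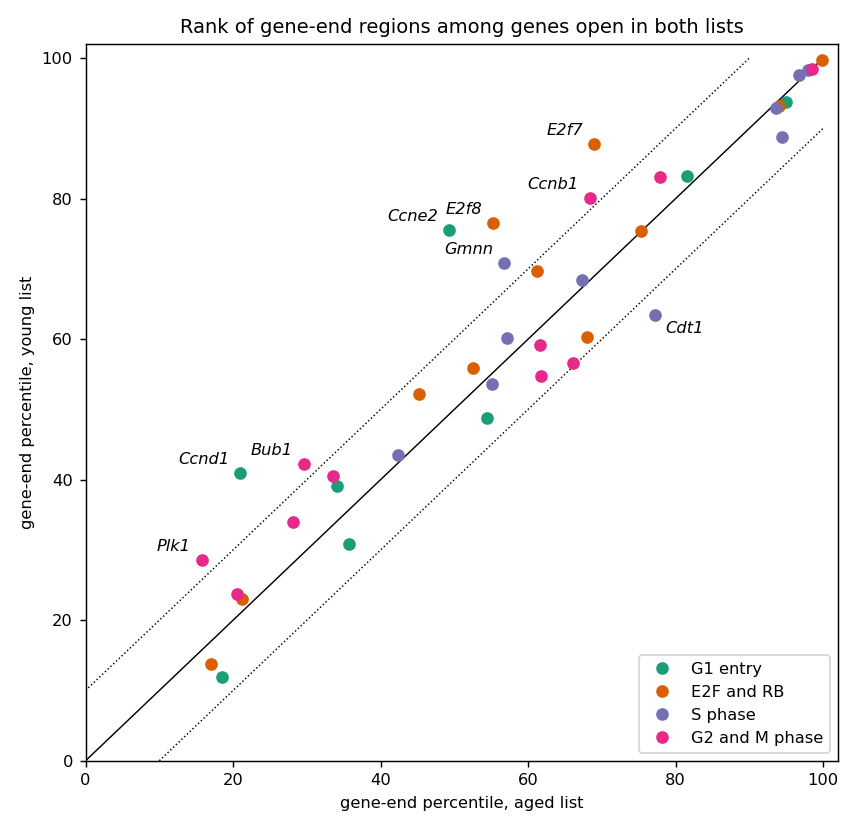
Percentile of the gene-end region among the 13855 genes open in both lists, aged list on the horizontal axis and young list on the vertical axis, 1 point a gene, coloured by class. The solid line marks equal ranks and the dotted lines a difference of 10 points. The 8 named genes above the upper dotted line rank lower in the aged list, and Cdt1 lies below the lower one.

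Other genes of the same processes were compared in the same way. In 3 further lists of cell cycle control, replication and mitosis genes, 78 of 83 genes were open at an end in both lists, with medians of 44.8-fold in the aged list and 69.2-fold in the young list. The mitosis list was open in both lists for 30 of 30 genes, the replication list for 33 of 36 and the control list for 15 of 17. Ccna1, the germ line A cyclin, Skp2, Orc1 and Orc4 were open at their ends in neither list, and Rfc1 was open in the young list alone, at 2.91-fold. Of the 78 genes, 4 ranked at least 10 points lower in the aged list (5.13%), among them the mitotic transcription factor gene Foxm1 (26.4-fold in the aged list, 55.4-fold in the young list) and the replication kinase gene Cdc7 (24.0-fold in the aged list, 53.7-fold in the young list). A further 3 ranked at least 10 points higher (3.85%). These shares lay near or below those of all genes, so the 20% seen in the 40 genes was not found in the wider cell cycle lists. Of 8 genes of CDK inhibitors, which hold cells out of the cycle, 7 were open at an end in both lists. Of these 7, 1 (14.3%, Cdkn2b) ranked at least 10 points lower in the aged list and 0 ranked higher. Cdkn1b, which encodes p27, had 66.5-fold in the aged list and 98.6-fold in the young list. Cdkn2a, which encodes p16 and p19ARF, had 25.3-fold in the aged list and 47.5-fold in the young list. Cdkn1a, which encodes p21, was open at an end in the aged list and not in the young list. Its 2.07-fold was close to the lowest fold of the aged list, 1.83. The gene-end measure misses a start that lies well inside the span. Cdkn1a had 5 distal regions in the aged list and 7 in the young list, and Skp2 had 9 in each. Orc1 had none in the aged list and 1 in the young list. Whether genes without a gene-end region had an open start inside the span was not tested.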

How the data were processed

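ATAC-seq was made on sorted muscle stem cells in 10 libraries. The submitters' processing notes name Bowtie2 and the mouse build mm10, which is GRCm38. The deposited files used are 2 peak lists in narrowPeak layout, 1 for aged and 1 for young cells after PGE2. Not given in the sources used here are the options of the caller, how reads were filtered or shifted to the transposase cut, and which libraries went into each list. Depth per library is unknown. A list made from more reads is longer at the same threshold. The authors' deposited fold of a summit is its ratio to the background of the caller. The −log10 q-values that the authors deposited describe single peaks, and the smallest −log10 q-value was 2.16 in the aged list and 2.08 in the young list. The deposited integer score and −log10 p-value were not used. Libraries after vehicle were not analysed here. A further planned immune marker is not reported here.

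Touching or overlapping entries were merged, keeping the strongest summit, which turned 215838 aged entries into 117284 regions (median width 380 bp, 71.6 Mb) and 265507 young entries into 131656 regions (435 bp, 92.2 Mb). Gene spans came from the RefSeq table of GRCm38.p6, which names no strand. Strand and starts came from the RefSeq promoter table. Regions of different lists were shared if they overlapped by at least 1 bp. Intervals are exact Clopper-Pearson intervals at 95% for shares and order-statistic intervals for medians. No test between ages was possible with 1 list per age. The counting of calls was tested on simulated data of 2000 genes. Python 3.11.15, numpy 2.4.6, pandas 2.3.3, scipy 1.17.1 and matplotlib 3.10.9 were used.

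The members, classes and comparison lists were chosen with earlier results of these data known. Beside 12 genes chosen by name, the genes to be named were the 2 strongest and 2 weakest gene ends of each class, the 5 genes with most distal regions and the 3 with the strongest distal region relative to the gene end, all in the aged list. Other genes, the comparison of ranks and the Cdk2, Mcm3 and Aurka promoters were chosen after their values were seen. The promoter table has no entry for 10 of the genes, namely Aurkb, Ccna2, Ccnd1, Ccnd2, Ccne2, E2f4, E2f5, Gmnn, Mcm4 and Rb1. The alternatives were a stricter q-value, equal numbers of strongest regions, other windows and neighbourhoods, a reciprocal overlap, merging across gaps, listed starts alone and the counting of other genes' ends as distal.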

Additional observations from a re-analysis of the deposited data

How the results depend on the processing

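Of 166 values recomputed under other settings, 145 kept within 1.5 times the reported count or within the reported interval, and 21 moved. For the gene-end median of the 8 G1 entry genes that interval ran from their lowest to their highest value. Such a median could hardly be counted as moved. All 17 values under the 2.5 kb gene-end window were counted as kept, although the order of the classes changed in the young list. A −log10 q-value of at least 5 gave an overlapped share of 97.4% of the aged regions near the genes. Equal numbers of the strongest regions were also kept from each list, namely 50% of the number in the shorter aged list. The weaker regions of both lists were thereby dropped. This left 178 aged and 186 young regions near the genes, with 84.9% of the young ones overlapped. The median distal folds were 8.79 in the aged list and 12.7 in the young list. Distal regions per 100 kb were then 4.44 in the aged list and 3.99 in the young list at G1 entry genes, and 1.91 in the aged list and 2.26 in the young list at S and M phase genes. Under that setting 2 genes, Cdt1 and Cdc20, ranked higher in the aged list. Neighbourhoods of 50 kb gave 514 aged and 545 young regions. The G1 entry genes then had 8.65 distal regions per 100 kb in each list. The S and M phase genes had 5.31 in the aged list and 6.56 in the young list, a smaller contrast than with 20 kb. Neighbourhoods of 5 kb gave 175 aged and 186 young regions. The G1 entry genes then had 13.1 distal regions per 100 kb in the aged list and 11.0 in the young list. The S and M phase genes had 1.93 in the aged list and 3.47 in the young list. A reciprocal overlap of 50% lowered the shared portions to 60.7% of aged and 59.3% of young regions. Listed starts alone, which only 30 genes have, left 5 genes ranked lower (Bub1, Ccnb1, E2f7, E2f8 and Plk1) and 2 ranked higher in the aged list (Cdt1 and E2f2). Counting ends of other genes as distal gave 6.35 distal regions per 100 kb at S and M phase genes in the aged list and 7.40 in the young list. The G1 entry genes then had 11.8 in the aged list and 10.4 in the young list, a smaller contrast than without those ends. Apart from the construction of each setting, the cause of these moves was not tested. Settings chosen after seeing the data were summits left unmerged, which named the same 8 and 1 genes, and the set without Ccnd1, which left 7 lower and 1 higher. No paired analysis was possible because each age is 1 list with no value per library, and leaving out a library was not possible for the same reason. A weak site missing from 1 list may lie below the threshold that the unknown depth of that list allows.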
